A study of Mus musculus with 9 samples.

Results

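Necab1, Enpep, Ankrd34c, Spink7 and Snx31 are 5 of the 22180 genes measured in whole mouse corneas. They were picked because their signal was low in destrin-mutant corneas and still low, against wild type, in the rescued corneas. Each has 1 row of the array with exactly 1 gene symbol, and that row was used. The choice rests on the differences between the 3 groups, so those differences are described here and not tested, and no numerical limit came with the choice.

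The arrays held 3 groups of 3. WT corneas were wild type. Mutant corneas carried Dstncorn1, a loss-of-function allele of Dstn, and are the pools labelled Corn1 control. Rescued corneas carried the same Dstncorn1 mutation, together with a genetic ablation of Srf that was limited to the corneal epithelium. Neither the promoter nor the recombinase behind that ablation is named in the sample labels. Every array was hybridised with RNA of 10 corneas that came from 5 mice and were pooled. The mice of all groups, WT included, were given doxycycline intraperitoneally from postnatal day 28 to the day of collection, postnatal day 58. Their background was a mixture of 129, A.BY, C57BL6/J, FVB and Swiss Black stock. All values below are log2 intensities, and base 2 was inferred from their range.

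Destrin severs and depolymerises actin filaments. Serum response factor (SRF), the product of Srf, is a transcription factor whose coactivators are released when free actin monomer runs low, so that it turns on cytoskeletal and contractile genes when filaments accumulate. Corneas that lack destrin are known for excess filamentous actin, a thickened epithelium, inflammation and ingrowth of vessels. The 5 genes belong to no common family. Necab1 encodes an EF-hand calcium-binding protein known mainly from neurons. Enpep encodes glutamyl aminopeptidase, a membrane enzyme that removes the N-terminal aspartate of angiotensin II. Spink7 encodes a secreted Kazal-type inhibitor of serine proteases. Snx31 encodes a sorting nexin of the PX-FERM type, which steers endosomal cargo and is known from the umbrella cells of the bladder. Ankrd34c encodes an ankyrin-repeat protein without a well described role.

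Dstn itself was lost in both destrin-mutant groups. It read 12.58, 12.55 and 12.59 in WT, 5.55, 5.80 and 5.54 in mutant, and 5.61, 5.62 and 5.63 in rescued pools. WT pools had a whole-cornea Srf level of 9.13 ± 0.13 (SD, n = 3). Mutant pools had 10.68 ± 0.12 and rescued pools 9.01 ± 0.51, so the mutant increase was absent after rescue. Krt12, the keratin of corneal epithelium, read 13.93 to 13.96 in WT, 13.49 to 13.56 in mutant and 13.91 to 13.94 in rescued pools. In limma it was 0.42 lower in mutant than WT (adjusted p = 0.000261). It was 0.39 higher in rescued than mutant corneas (adjusted p = 0.00142). The array medians lay between 6.75 and 6.78, and Pearson correlations over all rows were 0.990 to 0.993 within a group and 0.971 to 0.988 between groups. The pools differed in sex: Xist was 6.12 in mutant replicate 2 and 11.8 to 12.9 elsewhere, and 3 Y-linked genes averaged 5.34 and 5.15 in replicates 1 and 3 of WT, with 7.16 to 9.77 elsewhere. The low Y-linked signal was seen in WT pools only, so the sex make-up of the pools went partly with group. The part of sex in the member differences was not tested.

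Necab1 had the largest decrease of the 5. Its log2 intensity was 11.13, 11.06 and 10.999 in WT replicates 1 to 3, 6.50, 6.60 and 6.59 in mutant replicates 1 to 3, and 7.43, 7.36 and 7.35 in rescued replicates 1 to 3. The 3 groups did not overlap, the replicates of each lay close together, and the rescued pools sat just above the mutant pools and far below WT. The mutant mean was 4.50 below WT and the rescued mean 3.68 below WT, each with an SE of 0.06. As ratios of measured intensity, WT exceeded mutant Necab1 by at least 22.6-fold and rescued Necab1 by 12.8-fold. The words at least mark a ratio whose lower group mean was under 6.77, the median of all rows, where signal above background was not shown. The labels name no normalisation method, so background may remain in these intensities. Any that remains would make these ratios understate a true difference.

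Enpep and Ankrd34c followed with nearly the same profile as each other. Enpep read 10.37, 10.17 and 10.35 in WT, 6.71, 6.63 and 6.73 in mutant, and 7.09, 6.91 and 7.23 in rescued pools. Ankrd34c read 8.62, 8.52 and 8.22 in WT, 4.85, 4.66 and 5.001 in mutant, and 5.10, 5.12 and 5.02 in rescued pools. For both genes every rescued pool was above every mutant pool, but for Ankrd34c by only 0.018, and all 6 lay far below the WT pools. The mutant difference from WT was −3.61 (SE 0.09) for Enpep and −3.62 (SE 0.12) for Ankrd34c. The rescued difference was −3.22 (SE 0.09) for Enpep and −3.38 (SE 0.12) for Ankrd34c. Against WT, Enpep was thus at least 12.2-fold lower in mutant and 9.34-fold lower in rescued corneas. Ankrd34c was at least 12.3-fold lower in mutant and at least 10.4-fold lower in rescued corneas.

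Spink7 and Snx31 had the smallest decreases and the widest WT spread. Spink7 read 9.51, 9.37 and 8.98 in WT, 5.85, 5.95 and 6.38 in mutant, and 5.55, 6.96 and 6.43 in rescued pools. Rescued replicate 1 lay below all mutant pools and rescued replicate 2 above them, and the rescued SD of 0.71 is the largest of any member in any group. Snx31 read 9.95, 9.70 and 9.36 in WT, 6.99, 7.03 and 7.11 in mutant, and 7.27, 7.02 and 7.09 in rescued pools. Mutant and rescued pools overlapped for both genes, and both sets stayed clear of WT. Spink7 was 3.23 (SE 0.31) below WT in mutant and 2.98 (SE 0.31) below WT in rescued pools, which is at least 9.35-fold and at least 7.86-fold lower. Snx31 differed from WT by −2.63 (SE 0.13) in mutant and −2.55 (SE 0.13) in rescued pools, or 6.18-fold and 5.84-fold lower.

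**Figure D1:**
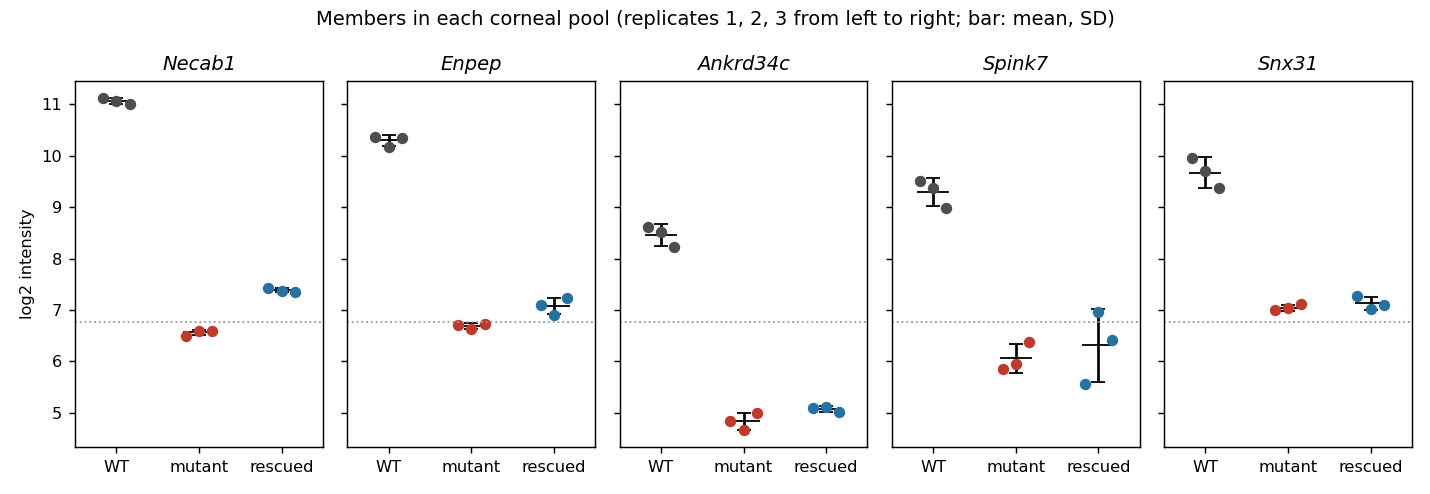
Log2 intensity of the 5 genes in each corneal pool, with 1 panel a gene, points for replicates 1 to 3 from left to right, and bars for the mean and SD of a group. The dotted line is the median of all rows, 6.77. In each panel all 6 mutant and rescued pools lie below the WT pools, and for Spink7 and Snx31 the mutant and rescued points overlap.

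All 5 genes had every mutant and every rescued pool below every WT pool, a pattern that 13.6% of all genes shared. The distance from the lowest WT pool to the highest other pool was 3.57 for Necab1, 2.95 for Enpep, 3.10 for Ankrd34c, 2.03 for Spink7 and 2.09 for Snx31. For 3 of the 5 (Necab1, Enpep and Ankrd34c) every rescued pool also lay above every mutant pool, against 15.1% of all genes. The rescued minus mutant differences were 0.82 for Necab1, 0.38 for Enpep, 0.24 for Ankrd34c, 0.25 for Spink7 and 0.08 for Snx31. Ordered by decrease from WT over all 22180 genes, the members ranked 3, 9, 8, 16 and 28 in the mutant (Necab1, Enpep, Ankrd34c, Spink7, Snx31) and 2, 4, 3, 5 and 9 in the rescued corneas. Dstn ranked first in both. The lowest WT value of 4 of the 5 genes was in WT replicate 3, and that of Enpep in WT replicate 2. Over all genes 37.3% had their lowest WT value in WT replicate 3. In whole corneas, fewer cells of a type and less RNA per cell cannot be told apart.

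How much of a decrease was undone in the rescued corneas can be put as a share: the rescued minus mutant difference over the WT minus mutant difference, in percent, on the log2 scale. That share was 18.2% for Necab1, 10.7% for Enpep, 6.66% for Ankrd34c, 7.76% for Spink7 and 3.11% for Snx31. With 1 array left out it was 17.6% to 18.5% for Necab1, 8.54% to 13.0% for Enpep and 4.36% (without mutant replicate 2) to 8.74% (without mutant replicate 3) for Ankrd34c. For Spink7 it was −2.22% without rescued replicate 2 and 19.5% without rescued replicate 1, and for Snx31 0.276% without rescued replicate 1 and 5.22% without rescued replicate 2. The shares of Spink7 and Snx31 thus rest on single arrays. The mutant means of Necab1, Enpep, Ankrd34c and Spink7 and the rescued means of Ankrd34c and Spink7 lay under 6.77, where signal above background was not shown, so their shares describe measured intensities and are not exact. As measured intensity relative to WT, Necab1 stood at 4.43% in mutant and 7.81% in rescued corneas, Enpep at 8.20% and 10.7%, and Ankrd34c at 8.15% and 9.63%. Spink7 stood at 10.7% and 12.7%, and Snx31 at 16.2% and 17.1%. The set in which to place these shares is the 442 genes (1.99% of all) that were called at least 2-fold lower in mutant than WT, where called means an adjusted p under 0.05 in limma. The median share in that set was 52.5%, with quartiles at 33.0% and 73.8%, and 77 of the 442 (17.4%) had a share under 25%. Only 99 genes (0.446%) were called at least 2-fold lower than WT in both mutant and rescued corneas, and all 5 members are among them, as their choice implies. Both comparisons use the same WT arrays. These shares describe how the members were chosen and carry no test.

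**Figure D2:**
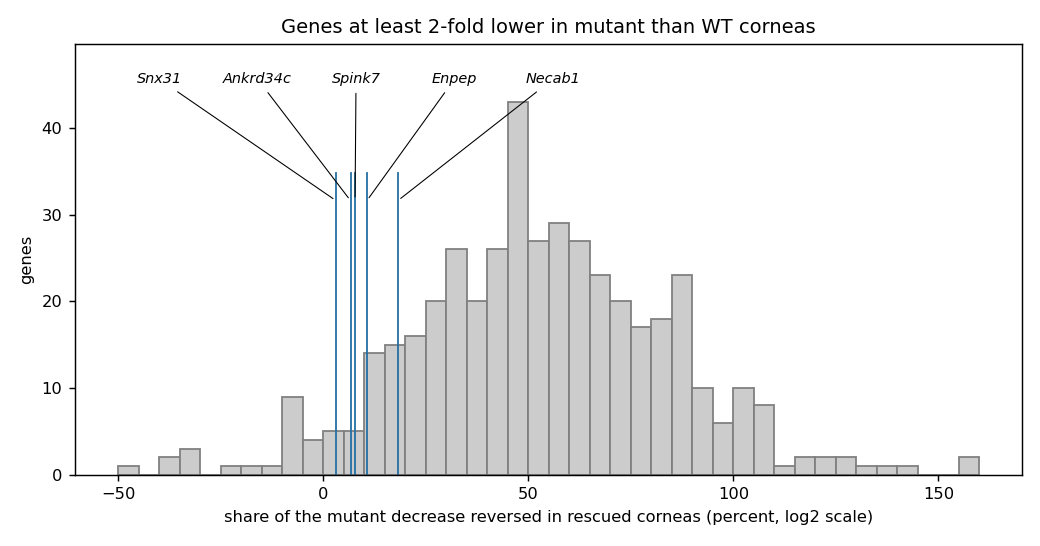
Share of the mutant decrease that was reversed in rescued corneas (percent, log2 scale, horizontal axis) for the 442 genes at least 2-fold lower in mutant than WT, as a histogram with the number of genes on the vertical axis. The 5 blue lines are the members, from 3.11% for Snx31 to 18.2% for Necab1, all left of the median of 52.5%.

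The likeness of profiles was measured over the 9 arrays, after subtracting each gene's WT mean, as the root mean square difference. Among the genes compared, which left out clone, microRNA and receptor-family symbols, Enpep and Ankrd34c were each other's nearest gene, at 0.187 log2 units, with a Pearson r of 0.994 over 9 arrays. The nearest genes to Necab1 were Ankrd34c (0.550), Enpep (0.587) and Cyp2b19 (0.852), a cytochrome P450 known from keratinocytes. Those nearest to Spink7 were Ankrd34c (0.475), Enpep (0.496) and Krt10 (0.582), a keratin of differentiating epidermis. The distance also reflects how large a decrease was. Snx31, whose decrease was the smallest of the members, had no other member among its nearest genes. Its nearest genes were Krt20 (0.318), a keratin of bladder umbrella and gut cells, Cyp4a12a (0.382), a fatty acid hydroxylase, and Piezo2 (0.419), a mechanically gated channel. The arrays of a group share genotype, so any gene lost in both groups scores as near, and these distances are a description.

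Krt10 and Cyp2b19, near in profile, had larger shares reversed than the members, a difference that was not tested. Krt10 read 12.25, 12.31 and 12.13 in WT, 9.08, 8.89 and 8.74 in mutant, and 9.95, 10.21 and 9.94 in rescued pools, a share reversed of 33.9%. Cyp2b19 had a share reversed of 45.6%. Krt20, nearest to Snx31, read 9.60, 9.35 and 9.69 in WT, 7.14, 7.16 and 6.87 in mutant, and 7.37, 7.46 and 7.26 in rescued pools. Its share reversed was 12.2%, within the range of the members.

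The promoters of Enpep and Ankrd34c are shown as the 250 bases before the start site (RefSeq, GRCm38.p6). Enpep lies at chr3:129332750-129332999 on the minus strand and Ankrd34c at chr9:89738476-89738725 on the minus strand. The table of promoters used here holds only these 2 of the 5 members, and they are shown for that reason. Capitals mark matches to CACCC, the core of sites bound by Krüppel-like factors, and to TATAA, which in Enpep lies on the opposite strand and so prints as TTATA.
Enpep: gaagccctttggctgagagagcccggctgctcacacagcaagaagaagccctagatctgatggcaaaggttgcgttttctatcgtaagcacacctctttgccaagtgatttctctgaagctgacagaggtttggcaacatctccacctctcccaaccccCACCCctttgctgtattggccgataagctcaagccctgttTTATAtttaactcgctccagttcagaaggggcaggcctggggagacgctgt
Ankrd34c: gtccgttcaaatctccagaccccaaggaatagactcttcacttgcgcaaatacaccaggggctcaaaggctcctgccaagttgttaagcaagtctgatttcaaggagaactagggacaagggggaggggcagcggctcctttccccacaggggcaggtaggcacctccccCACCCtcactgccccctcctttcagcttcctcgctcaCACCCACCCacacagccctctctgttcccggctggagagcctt
Enpep had 1 CACCC match and 1 TATAA match, and Ankrd34c had 3 CACCC matches, of which a pair overlap, and no TATAA match. Neither held a CArG box, the element bound by SRF, nor a match to AACNNGTT, TGANTCA or GGAATG, and each had 1 match to CANNTG. Both strands were searched, and matches to different motifs could overlap. Of 32851 mouse promoters of the same length, 1.47% held a CArG box, 22.8% TATAA, 52.0% CACCC, 3.64% AACNNGTT, 6.75% TGANTCA, 12.6% GGAATG and 66.2% CANNTG. GC content was 52.4% for Enpep and 58.4% for Ankrd34c, against a median of 52.4%. A match is a run of letters and not a shown binding site, and a motif with no match says only that these letters are not in this window.

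The members lie on 5 different chromosomes, so their nearest measured genes in the reference gene order are separate sets. These neighbours were chosen by position and could be tested. Of the 10 nearest (1 on each side of each member), 5 were lower and 1 higher in mutant than WT, that is 60% called against 31.6% of all genes. In rescued against WT corneas 4 were lower and none higher, 40% against 13.7%, and in rescued against mutant corneas 2 were higher and none lower, 20% against 13.3%. Over the 30 genes that were the nearest 3 on each side, 11 were lower and 2 higher in mutant than WT, 43.3% called. In rescued against WT corneas 7 of the 30 were lower and 1 higher.

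The largest of these neighbour differences was in Mir184, the gene of microRNA 184, which in the eye is known from corneal epithelium and lens. No reference gene lies between Ankrd34c and Mir184, and the hairpin is 63.78 kb from the Ankrd34c start site on the same strand. Its mature arms (RefSeq, GRCm38.p6) are shown with the seed, bases 2 to 8, in capitals.
miR-184-3p: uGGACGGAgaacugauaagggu
miR-184-5p: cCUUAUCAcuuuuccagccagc
The 3p arm lies at chr9:89802263-89802284 and the 5p arm at chr9:89802302-89802323, both on the minus strand. The array row does not separate them, and whether it reads the mature arms, the hairpin or a longer transcript was not tested. Mir184 read 10.81, 10.74 and 10.74 in WT, 7.08, 7.57 and 7.50 in mutant, and 8.78, 8.31 and 8.93 in rescued pools, with no overlap between groups. It fell by 3.38 (SE 0.16, adjusted p = 9.98e-07) in mutant against WT, 10.4-fold lower. In rescued corneas it rose by 1.29 (SE 0.16, adjusted p = 0.000923) over mutant and stayed 2.09 below WT (SE 0.16, adjusted p = 8.77e-05), a share reversed of 38.2%. Ankrd34c, beside it, had 6.66%. Tmed3, on the other side of Ankrd34c and a gene for a secretory-pathway cargo receptor, differed from WT by 0.15 in mutant (adjusted p = 0.0933). Rasgrf1, a guanine nucleotide exchange factor gene and the third measured gene on the Mir184 side, fell by 1.92 (SE 0.11, adjusted p = 1.99e-06) in mutant. It rose by 1.53 (adjusted p = 4.09e-05) in rescued over mutant, a share reversed of 79.5%.

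Spink13, another Kazal-type inhibitor gene, lies directly beside Spink7 with no reference gene between. It read 6.16, 5.64 and 5.44 in WT, 3.67, 3.68 and 3.73 in mutant, and 3.64, 3.94 and 3.77 in rescued pools. These intensities were under the median of all rows in every pool, so neither a fold nor a share reversed is given. Spink13 fell by 2.05 (SE 0.16, adjusted p = 1.17e-05) in mutant and by 1.96 (SE 0.16, adjusted p = 9.93e-05) in rescued against WT. Between rescued and mutant corneas it differed by 0.09 (adjusted p = 0.786). Spink10, on the other side of Spink7, differed from WT by −0.22 in mutant (adjusted p = 0.367) and 0.11 in rescued corneas (adjusted p = 0.724). Probe-level specificity between Spink genes was not tested.

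Beside Necab1, Gm11837 fell by 0.58 (adjusted p = 0.000859) and Tmem64, a gene for a membrane protein of calcium signalling, by 0.73 (adjusted p = 6.29e-05) in mutant against WT. In rescued against WT corneas Tmem64 fell by 0.46 (adjusted p = 0.00408) and Gm11837 by 0.35 (adjusted p = 0.0316). Tmem64 rose by 0.28 in rescued over mutant corneas (adjusted p = 0.0388). Leaving out any of 8 of the 9 arrays, all but rescued replicate 2, ended that rise (adjusted p 0.054 to 0.137). The Gm11837 call in rescued corneas was lost without rescued replicate 1, 2 or 3 or WT replicate 1 or 2 (0.0581 to 0.0987). The 2 nearest neighbours of Enpep, D030025E07Rik and Pou5f1-rs4, were not called in any comparison. Farther out, Elovl6, a fatty acid elongase gene, fell by 0.89 in mutant (adjusted p = 0.000188). Beside Snx31, Ankrd46 fell by 0.22 (adjusted p = 0.0174) and Pabpc1, the poly(A)-binding protein gene, rose by 0.24 (adjusted p = 0.0239) in mutant. Under the same check the Ankrd46 call was lost without mutant replicate 2 or WT replicate 1 or 2 (0.051 to 0.0633), and that of Pabpc1 without any mutant replicate or WT replicate 2 or 3 (0.0564 to 0.0785).

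**Figure D3:**
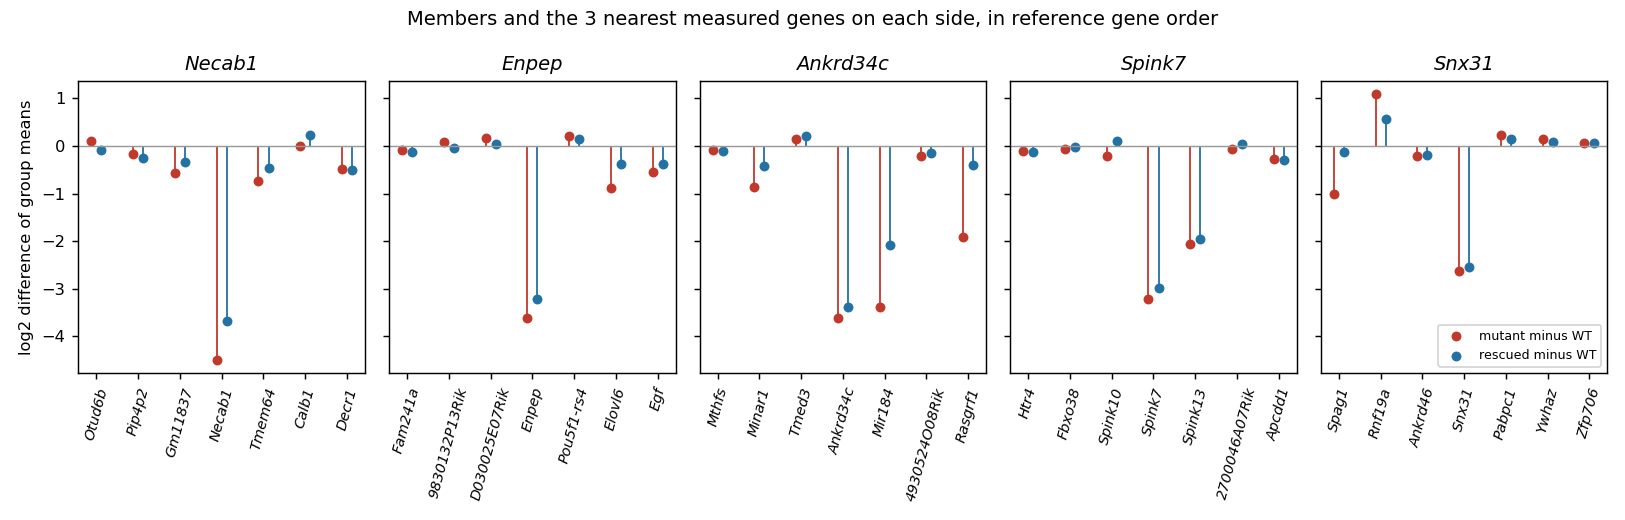
Log2 difference of group means from WT (vertical axis) for each member and the 3 nearest measured genes on each side in reference gene order (horizontal axis), red for mutant and blue for rescued corneas. The members have the longest bars of their panels, next to Mir184 at −3.38 beside Ankrd34c and Spink13 at −2.05 beside Spink7, and the other neighbours lie between −1.92 and 1.09.

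To see whether the families and pathways around the members moved with them, 118 related genes were tested. In mutant against WT corneas 40 of the 118 were called, 24 higher and 16 lower, or 33.9% against 31.6% of all genes (15.1% higher and 16.5% lower). In rescued against mutant corneas 15 were called (7 higher, 8 lower), 12.7% against 13.3% of all genes (6.46% higher and 6.88% lower). In rescued against WT corneas 15 were called (10 higher, 5 lower), 12.7% against 13.7% of all genes (6.28% higher and 7.43% lower). After quantile normalisation the last comparison had 14 higher and 4 lower. Each share is near that of all genes, and the median related gene differed from WT by 0.0023 in mutant and 0.0056 in rescued corneas.

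Around Necab1, 23 EF-hand genes were measured. In mutant corneas 4 were higher and 2 lower (26.1% called, against 31.6% of all genes), and in rescued corneas 3 were higher and none lower than WT (13.0%, against 13.7% of all genes). Its closest relatives were not called: Necab2 differed from WT by −0.15 (adjusted p = 0.236) and Necab3 by 0.13 (adjusted p = 0.444) in mutant, with group means under 6.77 throughout. Ocm, the calcium buffer oncomodulin, rose by 0.93 (SE 0.10, adjusted p = 9.57e-05) in mutant and by 1.14 (SE 0.10, adjusted p = 0.00018) in rescued against WT. Calml3, an epithelial calmodulin-like protein, fell by 0.63 (adjusted p = 9.07e-05) in mutant and rose by 0.48 (adjusted p = 0.00175) in rescued over mutant. Efhd2, an actin-binding EF-hand protein, rose by 0.46 (adjusted p = 0.000567) in mutant and 0.36 (adjusted p = 0.00679) in rescued against WT. Ncs1, a neuronal calcium sensor, rose by 0.53 in mutant (adjusted p = 0.00715). Hpcal1, of the same sensor family, rose by 0.44 in rescued over mutant (adjusted p = 0.00593). Against WT it was 0.34 higher (adjusted p = 0.0205), a call lost without rescued replicate 2 or 3 or WT replicate 2 (0.0591 to 0.0714).

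Of 19 renin-angiotensin genes, the peptide system of Enpep, 5 were higher and 2 lower in mutant (36.8%, against 31.6% of all genes), and 1 was higher and 1 lower in rescued than WT (10.5%, against 13.7%). Anpep, aminopeptidase N, which acts on the product of glutamyl aminopeptidase, rose by 0.88 (SE 0.16, adjusted p = 0.00206) in mutant. Prcp, a carboxypeptidase that trims angiotensin II at its other end, rose by 0.79 (SE 0.11, adjusted p = 0.00039). In rescued corneas Prcp was 0.44 below mutant (adjusted p = 0.0258), a call lost without mutant replicate 1 or 3 or rescued replicate 1 or 3 (0.0677 to 0.08). Cma1, mast cell chymase, rose by 1.096 (SE 0.28, adjusted p = 0.013) in mutant, with all group means under 6.77, and missed the threshold without mutant replicate 3 (0.0501). Mme, the membrane peptidase neprilysin, was lower with Enpep, by 0.72 (SE 0.14, adjusted p = 0.00306) in mutant. Its rescued difference from WT was −0.49 (adjusted p = 0.0455), lost without any of mutant replicates 1 and 3, rescued replicates 1, 2 and 3 or WT replicates 1 and 2 (0.0553 to 0.135). Quantile normalisation (0.0522) and array centring (0.0502) also ended that call. Prep, prolyl endopeptidase, rose by 0.38 in mutant (adjusted p = 0.000528) and by 0.27 in rescued over WT (adjusted p = 0.0109). Atp6ap2, the prorenin receptor, was also lower in mutant than WT, by 0.42 (adjusted p = 0.0018). It rose by 0.30 in rescued over mutant (adjusted p = 0.026), lost without mutant replicate 1 or 2 or rescued replicate 1 or 3 (0.0649 to 0.0943). In rescued corneas Atp6ap2 differed from WT by −0.12 (adjusted p = 0.367). Angiotensinogen (Agt), its converting enzyme (Ace) and the receptors Agtr1a and Agtr1b were not called in any comparison.

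Of 9 other M1 aminopeptidases, the zinc enzyme family of Enpep, 2 were higher and none lower in mutant than WT, Anpep again and Erap1. That is 22.2% called, against 31.6% of all genes. Erap1, which trims peptides for antigen presentation, rose by 0.56 (adjusted p = 0.00094) in mutant. Its rescued difference from WT was 0.33 (adjusted p = 0.0356), a call that ended without mutant replicate 1, rescued replicate 1 or 2 or WT replicate 2 or 3 (0.0502 to 0.118). In rescued against mutant corneas none of the 9 was called, and 2 had an unadjusted p under 0.05 in limma. Ankrd34a and Ankrd34b, the paralogs of Ankrd34c, differed from WT by −0.19 (adjusted p = 0.0832) and −0.07 (adjusted p = 0.543) in mutant. In limma neither paralog was called in any comparison, and 1 of the 2 had an unadjusted p under 0.05 in mutant against WT, 1 in rescued against mutant and 0 in rescued against WT.

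Among the 14 Kazal-type inhibitors other than Spink7, 1 was higher and 1 lower in mutant (14.3% called, against 31.6% of all genes). The same counts held in rescued against WT (14.3%, against 13.7% of all genes). The lower one was Spink13. The higher one was Spink5, whose product LEKTI restrains kallikreins in the epidermis. Spink5 read 9.30, 9.31 and 8.76 in WT, 11.34, 11.10 and 11.30 in mutant, and 11.29, 11.15 and 11.19 in rescued pools. It rose by 2.12 (SE 0.14, adjusted p = 4.2e-06) in mutant and by 2.09 (SE 0.14, adjusted p = 3.44e-05) in rescued against WT, 4.36-fold and 4.24-fold. Its share reversed was 1.87%. In the reference order 294 genes lie between Spink5 and Spink7. None of the 14 was called in rescued against mutant corneas in limma, and 1 had an unadjusted p under 0.05.

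Spink7 is known to restrain the urokinase system. Its protease side, with the urokinase receptor, was tested as 15 genes, the kallikreins and the urokinase pair together. In mutant corneas 3 were higher and 2 lower (33.3%, against 31.6% of all genes). In rescued corneas 2 were higher and none lower than WT (13.3%, against 13.7% of all genes). Plaur, the urokinase receptor, read 6.23, 6.28 and 6.66 in WT, 10.36, 10.26 and 10.33 in mutant, and 8.33, 8.79 and 7.83 in rescued pools. It rose by 3.93 (SE 0.21, adjusted p = 1.46e-06) in mutant, at least 15.2-fold, and fell by 2.00 (SE 0.21, adjusted p = 0.000319) in rescued against mutant. Plau, urokinase itself, rose by 1.67 (SE 0.10, adjusted p = 2.53e-06) in mutant and was 0.88 (SE 0.10, adjusted p = 0.000598) above WT in rescued corneas. The shares reversed were 50.9% for Plaur and 47.7% for Plau, against 7.76% for Spink7. Klk11, a kallikrein, fell by 1.66 (SE 0.28, adjusted p = 0.00137) in mutant. Klk10 fell by 1.08 (SE 0.35, adjusted p = 0.0413), a call lost without mutant replicate 1 or 2, rescued replicate 3 or WT replicate 1 or 2 (0.0516 to 0.128).

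Around Snx31, 29 other sorting nexins were measured, and in mutant corneas 9 were higher and 6 lower (51.7% called, against 31.6% of all genes). None of the 29 had all group means under 6.77, so the list holds brighter genes. Of the 11090 genes at or above the median of gene means, fitted alone, 56.6% were called in mutant against WT. In rescued against WT corneas 2 were higher and 2 lower (13.8%, against 13.7% of all genes). Of the same 11090 genes fitted alone, 31.2% were called in that comparison. Of the other PX-FERM nexins, Snx17 differed from WT by 0.05 (adjusted p = 0.594) and Snx27 by −0.23 (adjusted p = 0.0387) in mutant. The Snx27 call ended without any mutant replicate or without WT replicate 1 or 2 (0.065 to 0.12). Snx29 fell by 1.37 (SE 0.09, adjusted p = 3.5e-06) and Snx25, which carries an RGS domain, by 1.18 (SE 0.07, adjusted p = 3.56e-06) in mutant. Both stayed below WT in rescued corneas, by 0.76 (adjusted p = 0.000598) and 0.80 (adjusted p = 0.000213), with shares reversed of 44.8% and 32.2%. Snx8 fell by 0.74 (adjusted p = 0.000116) in mutant and rose by 0.78 (adjusted p = 0.000383) in rescued over mutant, back to the WT level. Snx10 and Snx7 rose by 0.66 (adjusted p = 0.000197) and 0.65 (adjusted p = 0.00017) in mutant, and both were 0.30 above WT in rescued corneas (adjusted p = 0.037 and 0.0313). For Snx10 the last call ended when any array but mutant replicates 2 and 3 was left out (0.0536 to 0.107), and for Snx7 without rescued replicate 2 or 3 or any WT replicate (0.0579 to 0.111). In rescued against mutant corneas Snx10 fell by 0.36 (adjusted p = 0.0186), lost without mutant replicate 3 or rescued replicate 1 or 2 (0.0535 to 0.0573).

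Uroplakins, the plaque proteins of umbrella cells that Snx31 is known to accompany, and the retromer were tested as 9 genes. Of these, 1 was higher and 3 lower in mutant (44.4%, against 31.6% of all genes). Upk3b read 8.78, 8.58 and 8.09 in WT, 7.19, 7.16 and 7.34 in mutant, and 7.60, 7.71 and 7.69 in rescued pools. It fell by 1.25 (SE 0.15, adjusted p = 0.000157) in mutant and by 0.82 (SE 0.15, adjusted p = 0.00646) in rescued against WT. Upk1b fell by 0.79 (SE 0.08, adjusted p = 5.69e-05) in mutant and rose by 0.67 (SE 0.08, adjusted p = 0.000641) in rescued over mutant. The shares reversed, 34.8% for Upk3b and 85.4% for Upk1b, exceeded the 3.11% of Snx31. Of the retromer, Vps29 rose by 0.22 (adjusted p = 0.0284) and Vps26a fell by 0.21 (adjusted p = 0.0293) in mutant. The Vps29 call ended without mutant replicate 2 or 3 or WT replicate 2 or 3 (0.0602 to 0.107), and that of Vps26a without mutant replicate 1 or 2 or WT replicate 1 or 3 (0.0642 to 0.0996).

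**Figure D4:**
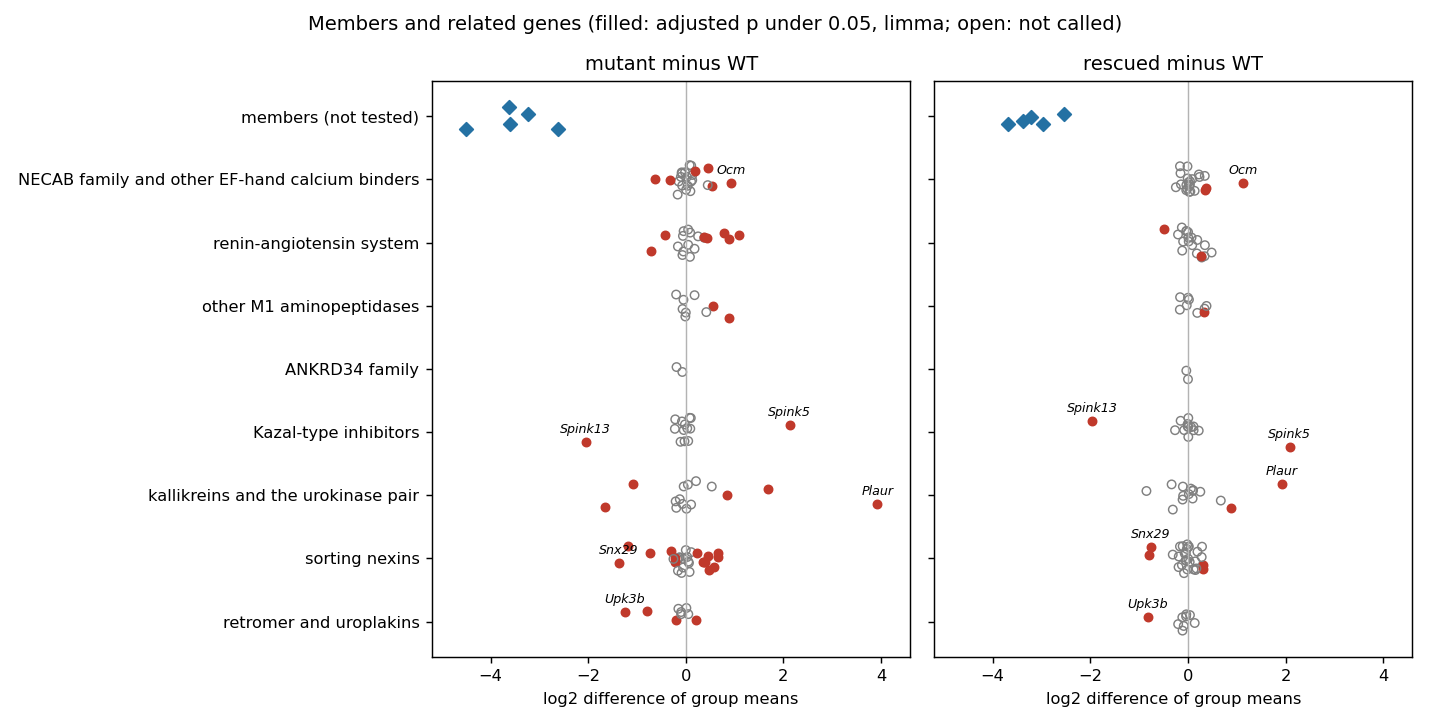
Log2 difference from WT (horizontal axis) of the 5 members and of the genes in 8 related lists, in mutant (left) and rescued corneas (right), with filled points for an adjusted p under 0.05 and open points for genes not called. Members are shown as diamonds and were not tested. They lie at −2.63 and below in mutant and at −2.55 and below in rescued corneas, further down than any related gene, of which Spink13 is lowest at −2.05 and −1.96.

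Marker genes of the cell types that a dissected cornea can hold were set beside the members. The mean of the 5 members was 9.92, 9.76 and 9.58 in WT replicates 1 to 3, 6.18, 6.17 and 6.36 in mutant, and 6.49, 6.67 and 6.62 in rescued pools. For 13 genes of corneal epithelium the mean was 12.17 to 12.22 in WT, 11.89 to 11.96 in mutant and 12.24 to 12.32 in rescued pools. In that list 7 of 13 were lower and 2 higher in mutant, and 1 was lower and 3 higher in rescued than WT. Of all genes, 16.5% were lower and 15.1% higher in mutant, and 7.43% lower and 6.28% higher in rescued than WT.

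The lens list moved in the direction of the members in both groups. Of 12 lens genes, 8 were lower and none higher in mutant than WT, and 9 were lower and none higher in rescued than WT, beside 16.5% and 7.43% of all genes lower. None was called in rescued against mutant corneas in limma, and 3 had an unadjusted p under 0.05. The pool means of the list were 9.24, 9.07 and 9.41 in WT, 8.79, 8.13 and 8.24 in mutant, and 8.31, 8.03 and 8.11 in rescued pools. Mutant replicate 1 lay nearest to WT for the lens list, while the member mean there was 6.18, between those of the other mutant pools. WT replicate 3 had the highest lens mean and the lowest member mean of the WT pools. Cryaa, alpha A-crystallin, read 11.93, 11.57 and 12.06 in WT, 11.11, 9.44 and 9.71 in mutant, and 9.96, 9.24 and 8.97 in rescued pools. Of the 12 lens genes, Bfsp2 alone had all group means under 6.77. The part of lens signal in the member differences was not tested.

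The remaining lists moved otherwise or by less. Of 9 retina, iris and ciliary body genes, 4 were lower in mutant and 1 in rescued than WT, with pool means of 6.46 to 6.69 in WT, 6.14 to 6.30 in mutant and 6.16 to 6.29 in rescued pools. In the nerve and Schwann cell list 1 of 7 was lower in each, with pool means of 7.18 to 7.22, 6.93 to 6.97 and 6.90 to 7.04. For 12 keratocyte genes 5 were lower and 1 higher in mutant, and 3 were lower in rescued than WT, and the pool means of mutant and WT overlapped. Corneal endothelium had 5 of 7 lower and 1 higher in mutant, and 1 lower and 1 higher in rescued than WT. Its pool means overlapped in all groups. Of 12 conjunctival and goblet cell genes 8 were higher and 1 lower in mutant, and 5 higher and 0 lower in rescued than WT. Of 10 macrophage genes 9 were higher and 1 lower in mutant, and 7 higher and 0 lower in rescued corneas. Of 10 genes of blood endothelium and pericytes 8 were higher and 1 lower in each. Of all genes, 15.1% were higher and 16.5% lower in mutant, and 6.28% higher and 7.43% lower in rescued than WT. Enpep is also known as a pericyte gene in other tissues. Rgs5, a pericyte marker, rose by 4.80 (SE 0.23, adjusted p = 9.11e-07) in mutant and by 3.90 (SE 0.23, adjusted p = 1.57e-05) in rescued against WT. Pdgfrb, the other pericyte gene of the list, was not called, with differences of −0.05 (adjusted p = 0.81) and −0.17 (adjusted p = 0.434). The part of any of these cell types in the member differences was not tested.

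**Figure D5:**
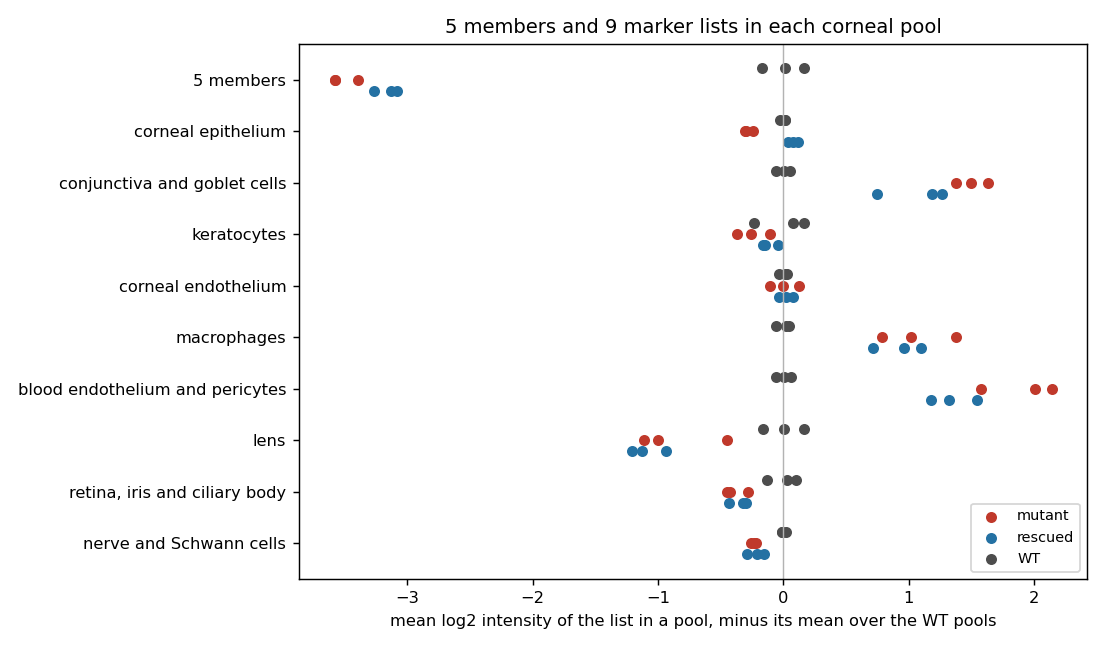
Mean log2 intensity of the 5 members and of 9 marker lists in each pool, minus the mean of the WT pools (horizontal axis), in grey for WT, red for mutant and blue for rescued pools. The member means in mutant and rescued pools lie over 3 units below WT; the lens list is the marker list furthest below WT in both groups, and the vessel list the furthest above.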

How the data were processed

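The values were those of the deposited table: log2 intensities of single-colour arrays of total RNA (Trizol extraction, Ambion WT Expression kit, Affymetrix WT Terminal Labeling kit, per the labels' protocols), normalised between arrays by the authors. The labels name no normalisation method. Of 41345 rows, 23521 carried 1 gene symbol in the platform annotation, 1814 several and 16010 none. The brightest row by mean over the 9 arrays stood for each of 22180 genes.

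The 3 comparisons were fitted with limma 3.58.1 (R 4.3.3; lmFit, contrasts, eBayes) over all 9 arrays, with Benjamini-Hochberg adjustment over all genes, two-sided. Genes were called at an adjusted p under 0.05. Adjusted p values given in brackets with a left-out array come from the same fit. SEs are the moderated SEs of limma, and ± is the SD of 3 pools. The fit was tested on simulated data.

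The members and lists were chosen with earlier results of these data known. Named related genes are the up to 4 called genes of each list and comparison with the largest absolute difference. From outside that rule, the close relatives Necab2, Necab3, Ankrd34a, Ankrd34b, Snx17 and Snx27, the angiotensin genes not called, Krt12, Elovl6, Rasgrf1, Rgs5 and Pdgfrb were named after their values were seen. Of the listed genes, 12 had no row with 1 symbol. Sequences and gene order are from RefSeq (GRCm38.p6), and the labels name no build for the array. The replicate numbers did not pair the arrays. The number of arrays limits the precision.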

Additional observations from a re-analysis of the deposited data

How the results depend on the processing

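The alternatives were quantile normalisation, array median centring, the mean of a gene's rows, a filter at the median of gene means, trend and robust variance, the replicate number as a block, the 6 arrays of a comparison alone, an adjusted p under 0.01, and leaving out each array. No called result changed direction. The median member difference was −3.63 to −3.53 (mutant minus WT), −3.30 to −3.19 (rescued minus WT) and 0.196 to 0.406 (rescued minus mutant) when 1 array was left out, against −3.61, −3.22 and 0.25. The last was 0.406 without mutant replicate 3 and 0.377 without rescued replicate 1. For Spink7 alone it was −0.07 without rescued replicate 2 and 0.63 without rescued replicate 1, against 0.25.

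The related genes called in mutant against WT, rescued against mutant and rescued against WT numbered 40, 15 and 15, and 35 to 40, 10 to 18 and 10 to 19 with 1 array left out. The filter gave 25 in rescued against WT, but with it 31.2% of the genes tested were called there, against 13.7% without it. At an adjusted p under 0.01, 9 were called in rescued against mutant and 9 in rescued against WT. The shares of all genes called at that limit were 6.4% and 6.19%. Of 73 calls of named genes other than the members, 51 held without each array in turn. The same-numbered arrays of different groups had deviations correlated at −0.016 to 0.063, and 2 of 9 arrays correlated best with their own number. With the replicate block the counts were 38, 16 and 12.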

Other observations

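Among the 80 genes called at least 4-fold lower in mutant than WT, 14 had a share reversed under 25%. Besides the 5 members and Dstn these were Spink13, Fat4, Piezo2, Krt20, 9430018G01Rik, Gm10573, Cyp4a12a and Gca. Fat4, a giant cadherin of planar polarity, was 2.14 below WT in mutant and 2.04 below WT in rescued corneas, a share of 4.80%. Piezo2, the channel of touch-sensing neurons, was 2.22 and 2.05 below, a share of 7.66%. Gca, the calcium-binding protein grancalcin, was 2.34 and 1.78 below, a share of 23.8%.

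On the other side, 36 of the 176 genes called at least 4-fold higher in mutant (20.5%) had a share under 25%, with a median of 38.8% over the 176. Krt16, a keratin of stressed epidermis, was 3.88 above WT in mutant and 4.12 in rescued corneas, a share of −6.14%. Krt17 was 5.69 and 5.30 above, and Sprr1a, a cornified-envelope precursor, 3.13 and 2.83. The lipoxygenase genes Alox12e and Alox15 were 3.45 and 5.17 above WT in mutant, and 3.26 and 4.41 in rescued corneas. H2-Aa, H2-Ab1 and H2-Eb1, genes of class II antigen presentation, had shares of 17.2%, 17.6% and 19.7%. These genes were selected by the values given, so no test is attached.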
